A study of Marmota monax with 203 samples.

Results

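The kynurenine pathway from tryptophan to NAD was examined through 10 genes, IDO1, TDO2, AFMID, KMO, KYNU, HAAO, ACMSD, QPRT, NADSYN1 and NAMPT. They were chosen by symbol as enzymes of the pathway and of NAD synthesis, and all 10 are among the 17587 genes listed in the liver RNA-Seq counts. All 10 were listed in each of the 203 sequencing runs and passed the filter on low counts at every week. The animals were woodchucks (Marmota monax) of both sexes, born in captivity and carrying chronic woodchuck hepatitis virus (WHV) infection since neonatal inoculation. Every animal in both groups was infected, so no uninfected liver enters any comparison. One group received subcutaneous recombinant woodchuck IFN-alpha (wIFN-α) 3 times a week and the other a placebo. The dose was 20 µg at weeks 0 and 3 and 100 µg at weeks 7, 11 and 15, and weeks 19 and 23 were follow-up without dosing. The labels number the same biopsies -3, 1, 4, 8, 12, 16, 20 and 24. Week -3 preceded treatment. Biopsies of the dosing weeks were taken hours after an injection of wIFN-α or placebo. Those of week 0 followed the first injection, and in the wIFN-α group those of week 7 followed the first injection of the higher dose. On-treatment levels are therefore levels soon after an injection, and levels between injections were not measured. The wIFN-α group held 11, 11, 9, 9, 8, 8, 6 and 6 biopsies at the successive weeks, and the placebo group 12, 12, 12, 12, 10, 9, 5 and 9. Biopsies of the same animal were taken at successive weeks, so the weeks are repeated measurements. Not every animal has a biopsy at each week, and the placebo group held fewer at week 19 than at week 23.

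In this pathway, tryptophan is opened to N-formylkynurenine by either of a pair of dioxygenases. TDO2 is the enzyme of hepatocytes and is set by tryptophan supply and glucocorticoids, while IDO1 is an interferon-inducible enzyme. Bulk liver counts do not show which cells carry IDO1. AFMID removes the formyl group, KMO hydroxylates kynurenine, and KYNU cleaves 3-hydroxykynurenine to 3-hydroxyanthranilate. HAAO opens that ring to an unstable product at which the pathway branches, because ACMSD directs the product to oxidation and away from NAD, and QPRT takes the quinolinate that forms in its absence towards NAD. NADSYN1 completes de novo NAD synthesis. NAMPT is the rate-limiting enzyme of the salvage route, which rebuilds NAD from nicotinamide. No sequence is shown, since the result turns on transcript levels.

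Among the 149 biopsies compared, 12072840 to 84805845 read counts lay on genes (median 28754894). Levels below are TMM-scaled CPM (read counts relative to library size). Genes were called where the fold change exceeded 1.5 and the adjusted p lay below 0.05. The liver label was checked with 15 hepatocyte markers. Biopsies of placebo animal F1016 and wIFN-α animal F1018 at week -3 went against that label, with albumin (ALB) at 114 and 32.0 CPM against at least 8525 CPM in the other 147 biopsies, and with 14.97% and 14.91% of reads on 20 skeletal muscle markers. In all, 21 biopsies had over 1% of reads on muscle markers, and calls that changed without them are given with the gene. The wIFN-α library labelled F1013 at week 3 stood apart in interferon-induced genes, which were looked at after its IDO1 value was seen. ISG15 was 2.68 CPM there and 693 to 1220 CPM in the other 8 wIFN-α biopsies of that week, and MX1 was 683 CPM against 4877 to 8012 CPM. Placebo biopsies of week 3 held 7.51 to 46.1 CPM of ISG15 and 175 to 752 CPM of MX1. A pair of runs of placebo animal M1008 at week 15 differed more than other runs of one biopsy (chi-square per degree of freedom 137). With the deepest run of each biopsy alone, the same number of members was called at each week.

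IDO1 and NAMPT were higher in the wIFN-α group at every on-treatment week, and no other member was. IDO1 rose 13.2-fold at week 0, 5.95-fold at week 3, 10.3-fold at week 7, 19.2-fold at week 11 and 23-fold at week 15. NAMPT rose between 2.28-fold and 2.54-fold at the same weeks. Of the remaining 8 enzymes, only ACMSD passed the call, at week 11, where it was 1.68-fold lower. At weeks -3, 19 and 23 none of the 10 was called. The share of all genes tested that was called higher was 10.3% at week 0, 7.24% at week 3, 11.4% at week 7, 12.6% at week 11 and 13.4% at week 15. The share called lower was 8.15%, 3.54%, 10.1%, 7.98% and 8.83% at those weeks. Thus 2 of 10 members higher is close to the share of genes called higher in this liver, and the count itself does not set these members apart.

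**Figure D1:**
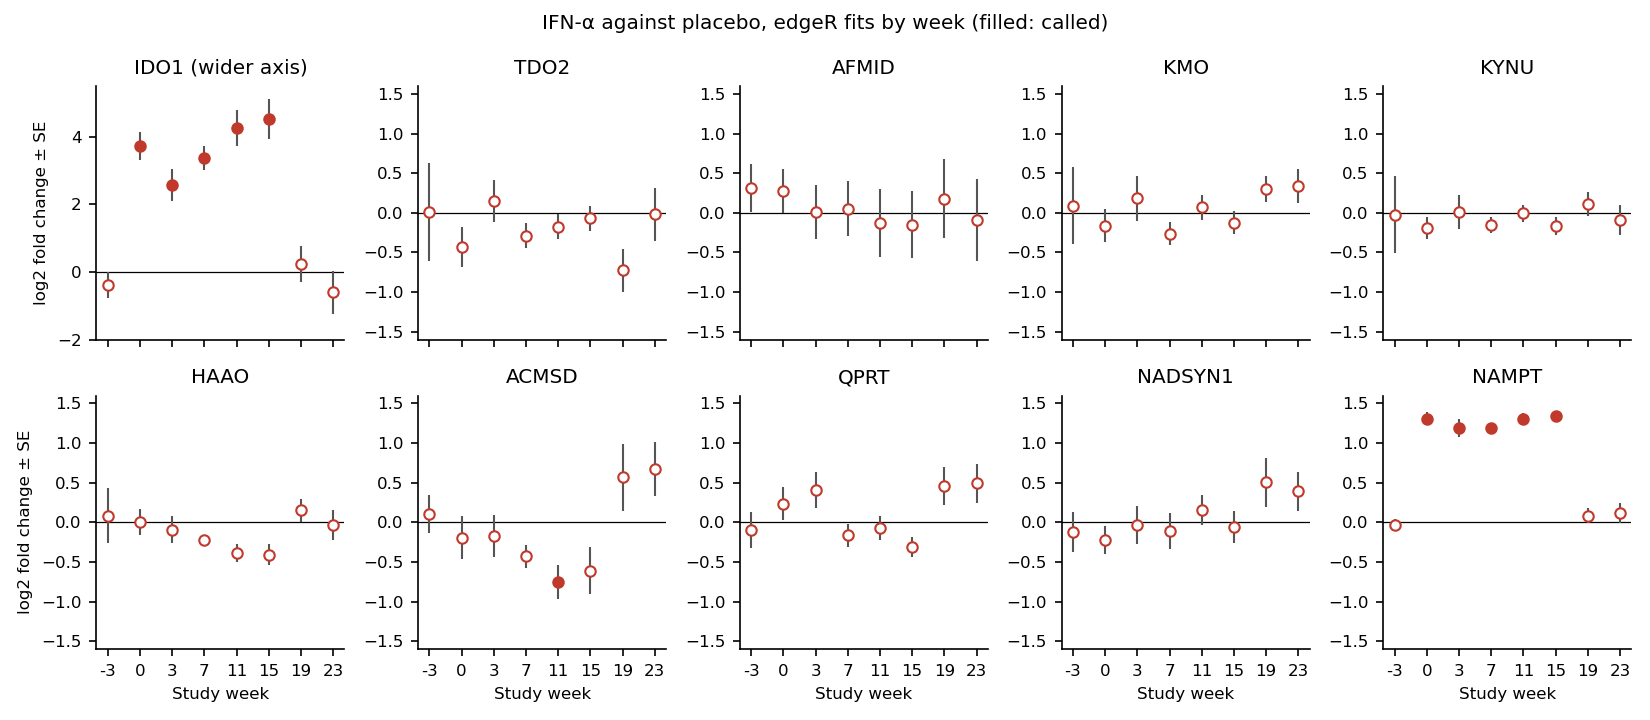
Log2 fold change of each member, wIFN-α against placebo, with its standard error, at each study week (edgeR, a separate fit for each week). Filled circles passed the call. IDO1 has its own wider axis and reaches 4.52 at week 15, NAMPT stays between 1.19 and 1.34 on treatment, and ACMSD at week 11 is the single filled circle below 0.

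IDO1 was scarce in placebo liver. Before treatment, at week -3, its level ran from 0.349 to 8.25 CPM in the placebo group (median 1.596) and from 0.691 to 2.92 CPM in the animals assigned to wIFN-α (median 1.67), and the groups overlapped throughout (log2 fold change -0.38, SE 0.39, adjusted p = 1, edgeR). The highest value was that of F1016, a biopsy rich in muscle reads. At week 0 the placebo biopsies lay between 0.570 and 7.38 CPM (median 2.21) and the wIFN-α biopsies between 12.8 and 94.9 CPM (median 27.0). No wIFN-α biopsy fell within the placebo range, and the log2 fold change was 3.73 (SE 0.41, adjusted p = 9.37e-08, edgeR). All 11 animals were above their own week -3 value. F1023 gave the highest level, and this biopsy had 8.20% of its reads on muscle markers.

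At week 3 the placebo biopsies held 1.09 to 10.9 CPM of IDO1 (median 2.23) and the wIFN-α biopsies 1.08 to 33.2 CPM (median 19.8). The groups overlapped only through the F1013 library, which was lowest of all 21 biopsies of that week, and the other 8 exceeded every placebo value. The log2 fold change was 2.57 (SE 0.47, adjusted p = 4.04e-04, edgeR) with F1013 and 2.73 (SE 0.39, adjusted p = 2.2e-05) without it. F1013 itself had 23 CPM at week 0 and 24.0 CPM at week 7.

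Under the higher dose the placebo and wIFN-α ranges of IDO1 did not meet. At week 7 they were 0.714 to 6.51 CPM (median 2.10) and 16.7 to 40.2 CPM (median 28.2). The log2 fold change was 3.37 (SE 0.35, adjusted p = 5.45e-08, edgeR). At week 11 the placebo range was 0.430 to 5.27 CPM (median 2.39) and the wIFN-α range 18.7 to 152 CPM (median 30.9), with a log2 fold change of 4.26 (SE 0.53, adjusted p = 3.4e-06, edgeR). At week 15 placebo biopsies held 0.592 to 6.48 CPM (median 1.41) and wIFN-α biopsies 19.03 to 205 CPM (median 37.1). That gave the largest log2 fold change of the 8 weeks, 4.52 (SE 0.59, adjusted p = 8.41e-06, edgeR). One animal, F1020, supplied the top value at both weeks. Without it the log2 fold change was 3.72 at week 11 (SE 0.44, adjusted p = 3.03e-06) and 3.84 at week 15 (SE 0.46, adjusted p = 4.32e-06), so IDO1 kept its call but the fold moved by over 1.5 times at week 15. F1020 had started at 2.50 CPM at week -3 and stood at 37.0, 31.9 and 28.4 CPM at weeks 0, 3 and 7, within the range of the other treated animals.

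After dosing ended IDO1 returned to the placebo range. At week 19 the 5 placebo biopsies held 1.15, 1.17, 1.26, 2.62 and 6.04 CPM, and the 6 wIFN-α biopsies ran from 1.14 to 5.95 CPM (median 2.86). The difference was 0.24 on the log2 scale (SE 0.53, adjusted p = 0.881, edgeR). At week 23 placebo biopsies ran from 0.589 to 12.6 CPM (median 2.20) and wIFN-α biopsies from 0.878 to 5.79 CPM (median 1.59), a log2 fold change of -0.60 (SE 0.64, adjusted p = 0.616, edgeR). In these 2 follow-up weeks the groups overlapped almost wholly.

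Levels of immune cell and cholangiocyte markers differed between the groups alongside IDO1, and bulk tissue cannot tell more cells of a type from more RNA per cell. At week 0, 1 of 10 T cell markers was higher in the wIFN-α group and none lower, and their summed level was 66.5 to 119 CPM in placebo and 48.0 to 138 CPM in treated biopsies. At week 15, 8 of 10 were higher, and the sums were 44.4 to 89.0 CPM and 115 to 251 CPM, with no overlap. For the NK and cytotoxic markers (8 of 10 tested), 4 were higher at week 0 and 6 at week 15, with sums at week 15 of 16.2 to 27.2 CPM and 37.8 to 78.7 CPM. Macrophage markers gave 1 higher of 10 at week 0, and 4 higher and 1 lower at week 15, where the sums were 361.8 to 645.5 CPM and 525.7 to 1234 CPM. Dendritic cell markers gave 2 higher of 8 tested at week 0 and 3 higher of 9 at week 15, and their sums overlapped at both weeks. At week 15, 4 of 8 B and plasma cell markers, 3 of 10 cholangiocyte markers and 3 of 15 hepatocyte markers were also higher, with none lower, while neutrophil markers gave 2 higher and 1 lower of 10 and endothelial markers 1 of 10 in each direction. At week 0, 4 of 10 cholangiocyte markers were higher and none lower, and no B and plasma cell or hepatocyte marker was called. Neutrophil markers then gave 1 higher and 1 lower of 9, and endothelial markers 1 higher and 2 lower of 10. No T cell, macrophage or dendritic cell marker had a median of 0 over the biopsies compared. The top IDO1 biopsies differed in this respect. The F1020 biopsy of week 15 had the highest T cell, NK and macrophage marker sums of its group (251, 78.7 and 1234 CPM). The F1023 biopsy of week 0 had the lowest sums of its group for T cells, NK cells and macrophages (48.0, 29.3 and 196 CPM). Its hepatocyte sum was also the lowest of its group (90330 CPM) and its skeletal muscle sum the highest (98740 CPM). Its cholangiocyte sum was 458.7 CPM, against a group median of 454.7 CPM. The part of muscle RNA in these sums was not tested. Over the 45 on-treatment wIFN-α biopsies of 11 animals, the Spearman correlation of IDO1 was 0.439 with the T cell sum, 0.44 with the macrophage sum, 0.051 with the dendritic cell sum and -0.396 with the hepatocyte sum. With the NK and cytotoxic, B and plasma cell, and neutrophil sums it was 0.354, 0.374 and 0.355. These biopsies share animals and libraries, so the values are descriptions. The part of cell content in the IDO1 difference was not tested.

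The other dioxygenase, TDO2, was not called at any week. At week 0 its level ran from 126 to 462 CPM in placebo biopsies (median 249.0) and from 80.2 to 451 CPM in wIFN-α biopsies (median 197). The ranges overlapped and the log2 fold change was -0.43 (SE 0.26, adjusted p = 0.208, edgeR). At week 15 the levels were 356 to 664 CPM (median 491) and 286 to 616 CPM (median 476), with a log2 fold change of -0.07 (SE 0.16, adjusted p = 0.752, edgeR). The lowest estimate was that of week 19, -0.72 (SE 0.27, unadjusted p = 0.0205, adjusted p = 0.349, edgeR), where 4 of 6 treated biopsies lay below every placebo biopsy. TDO2 was at 2.56 CPM in the F1016 biopsy and 0.196 CPM in the F1018 biopsy of week -3, the ones low in albumin.

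**Figure D2:**
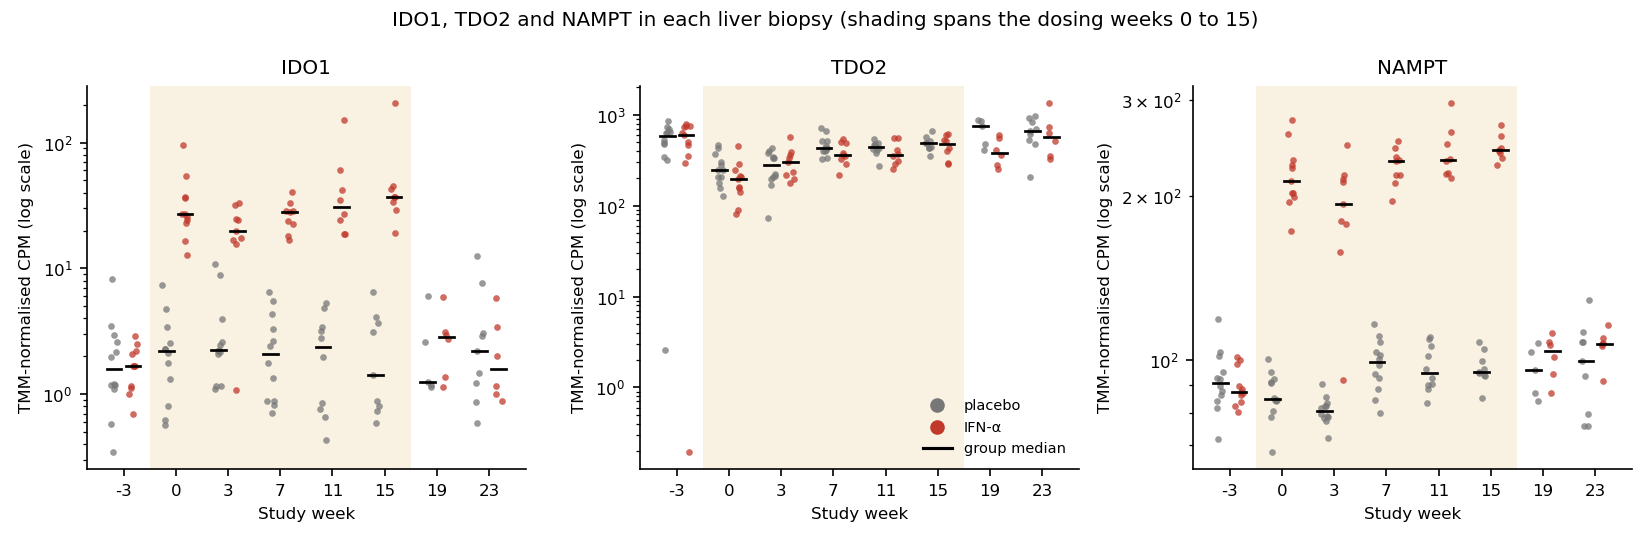
Levels of IDO1, TDO2 and NAMPT in TMM-normalised CPM on log axes. Each point is a biopsy (gray, placebo; red, wIFN-α), black lines are group medians and the shaded weeks are those of dosing. IDO1 and NAMPT separate within the shading, apart from the IDO1 point of F1013 at week 3, and meet again at weeks 19 and 23, whereas TDO2 overlaps throughout, with 2 low points at week -3.

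IDO1 and TDO2 catalyze the same step, so their levels per kilobase of transcript were compared within each biopsy. The log2 ratio of IDO1 to TDO2 averaged -6.07 ± 1.18 (SD, n = 12) in placebo and -1.91 ± 1.38 (SD, n = 11) in wIFN-α biopsies at week 0, a difference of 4.16 (two-sided permutation test with 100000 resamples, adjusted p = 0.000163 over 24 ratio comparisons). The raw p of 2e-05 is the smallest these resamples can give. At week 15 the means were -7.11 ± 1.09 (SD, n = 9) and -2.69 ± 1.19 (SD, n = 8), a difference of 4.42 (two-sided exact permutation test, adjusted p = 0.000282). Differences of 2.27, 3.74 and 4.27 at weeks 3, 7 and 11 also passed (exact permutation test, adjusted p = 0.0172, 0.000163 and 0.000219). In this unpaired comparison the IDO1 effect thus differed from the TDO2 effect at every on-treatment week. With each animal's own week -3 value subtracted, the differences at weeks 3, 11 and 15 became 1.77, 3.83 and 4.04 (exact permutation test, adjusted p = 0.407, 0.0553 and 0.0652). With biopsies over 1% muscle reads also left out, the paired differences were 2.47, 4.25 and 3.72 (exact permutation test, adjusted p = 0.0625, 0.00408 and 0.00408). At week 19 the ratio was 1.03 higher in the treated group (exact permutation test, adjusted p = 0.0472), and this call was lost when any of 10 of the 11 animals was left out, when muscle-rich biopsies were removed (0.84, adjusted p = 0.104), in the paired form (0.74, adjusted p = 0.675) and with both (0.12, adjusted p = 0.938, exact permutation tests).

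Despite the size of the IDO1 response, TDO2 remained the more abundant dioxygenase transcript in most treated livers. IDO1 made up a median of 1.06% of the summed IDO1 and TDO2 level per kilobase in placebo biopsies at week 0 (range 0.234% to 4.17%) and 21.8% in wIFN-α biopsies (range 5.57% to 65.6%). At week 15 the medians were 0.463% (0.195% to 1.81%) and 10.3% (8.86% to 53.7%). F1023 at week 0 and F1020 at week 15 were the on-treatment biopsies in which IDO1 exceeded TDO2, and the pair of week -3 biopsies low in albumin, with almost no TDO2, were the others (83.9% and 94.8%). At week 23 the medians were 0.474% and 0.634%, and placebo animal M1008 held the highest share, 8.98%.

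**Figure D3:**
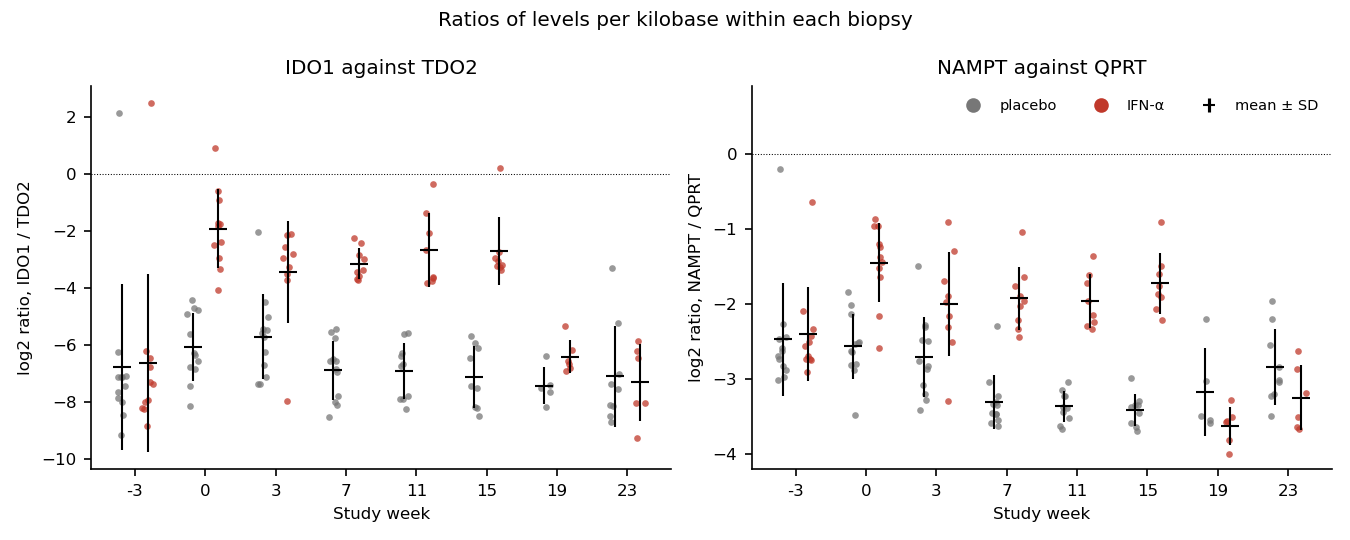
Log2 ratios of levels per kilobase within each biopsy, with a pseudocount of 0.1 CPM per kilobase, for IDO1 against TDO2 and NAMPT against QPRT. Points are biopsies, black marks are means ± SD, and the dotted line marks equal levels. Both ratios are raised on treatment, by 4.42 and 1.69 at week 15, and the 2 high points at week -3 of the left panel are the biopsies low in albumin.

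AFMID, the formamidase of the next step, showed no difference between the groups at any week and a large one between animals. In F1018 (wIFN-α) it ran from 845 to 1256 CPM over 8 biopsies and in F1019 (placebo) from 648 to 1637 CPM over 8 biopsies, whereas the 133 biopsies of the other animals ran from 141 to 456 CPM (median 235). Both animals were thus above every biopsy of every other animal, including at week -3, and they belonged to different groups. After removal of the group and week means, 93.2% of the spread of AFMID lay between animals, against 25.2% for TDO2, 27.0% for NAMPT and 69.8% for NADSYN1. The log2 fold change of AFMID at week 15 was -0.15 (SE 0.43, adjusted p = 0.81, edgeR). It was 0.34 without F1019 and -0.72 without F1018, neither called.

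**Figure D4:**
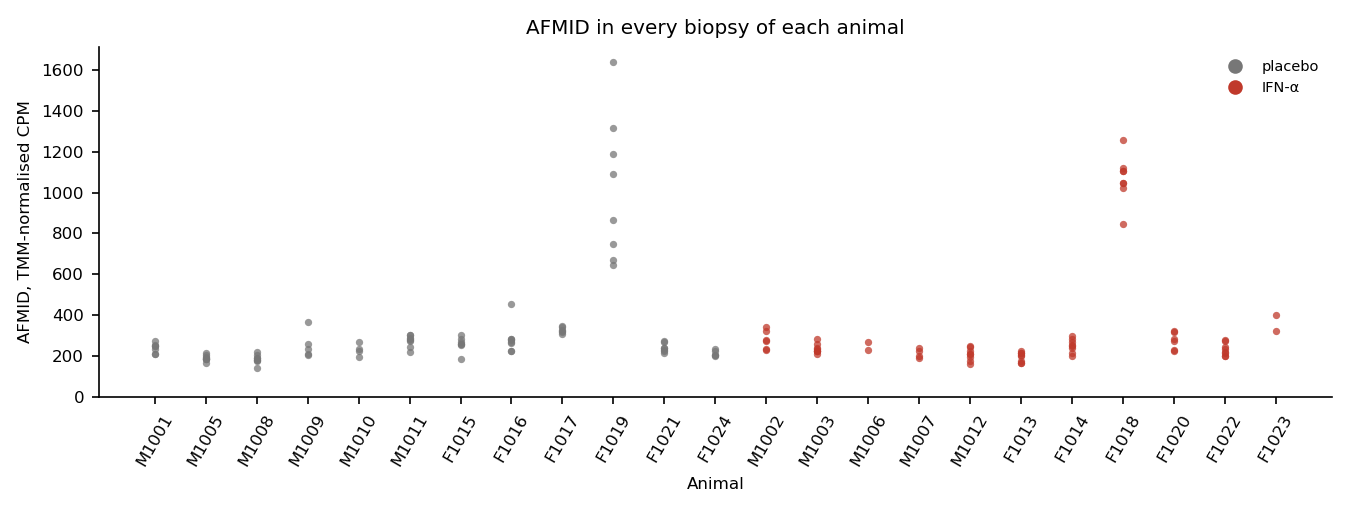
AFMID level in TMM-normalised CPM in every biopsy of each of the 23 animals (gray, placebo; red, wIFN-α). The lowest biopsy of F1019 and F1018 is at 647.7 CPM and the highest of the other animals at 455.9 CPM.

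KMO and KYNU, the hydroxylase and the cleavage enzyme that follow, did not pass the test at any week. At week 15 KMO ran from 51.0 to 87.2 CPM in placebo (median 61.0) and from 36.6 to 78.5 CPM in wIFN-α biopsies (median 54.4), with a log2 fold change of -0.13 (SE 0.14, adjusted p = 0.509, edgeR). KYNU ran from 49.3 to 75.4 CPM (median 61.3) and from 39.3 to 71.9 CPM (median 54.7), a log2 fold change of -0.17 (SE 0.12, adjusted p = 0.257, edgeR). The groups overlapped for both enzymes, although 4 of 8 treated biopsies lay below the lowest placebo value of KMO.

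HAAO, which makes the branch-point intermediate, was lower in the treated group at the high dose by less than the fold required for a call. At week 7 placebo biopsies held 335 to 440 CPM (median 407) and wIFN-α biopsies 246 to 379 CPM (median 348), a log2 fold change of -0.23 (SE 0.07, adjusted p = 0.0128, edgeR). At week 11 the levels were 305 to 531 CPM (median 387) and 222 to 410 CPM (median 296), and 5 of 8 treated biopsies were below every placebo biopsy (log2 fold change -0.39, SE 0.11, adjusted p = 0.0121, edgeR). At week 15 they were 252 to 495 CPM (median 412) and 232 to 399 CPM (median 276), with a log2 fold change of -0.41 (SE 0.13, adjusted p = 0.0199, edgeR). With the week -3 biopsy of the same animal as a replicate block, none of the 3 weeks passed (-0.28, -0.51 and -0.57, SE 0.48, 0.56 and 0.63, adjusted p = 0.746, 0.637 and 0.658, edgeR). The baselines of that fit include the F1016 and F1018 biopsies low in albumin, with 26.1 and 25.1 CPM of HAAO. It was not repeated without them, so with its larger SE it cannot decide whether HAAO was lower. By adjusted p alone, whatever the fold, 4 members passed at week 7, 4 at week 11 and 3 at week 15, the same weeks at which 46.6%, 37.3% and 41.5% of all genes did. At weeks 0 and 3 the HAAO estimates were 0.00 (SE 0.17) and -0.09 (SE 0.17), neither past the test.

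At the branch, ACMSD was the member whose placebo level varied most with time. Placebo biopsies held 10.8 to 39.6 CPM at week -3 (median 26.6), 63.1 to 159 CPM at week 7 (median 103), 56.0 to 217 CPM at week 15 (median 94.0) and 21.2 to 71.3 CPM at week 23 (median 23.6). All 12 placebo animals rose from week -3 to week 7, by a median of 3.57-fold, and all 9 measured at both weeks 7 and 23 fell between them, by a median of 3.12-fold. Medians of the wIFN-α group were 24.5 CPM at week -3, 79.3 CPM at week 7 and 71.3 CPM at week 15, and at weeks 19 and 23 they were 81.8 and 47.1 CPM, above the placebo medians of 31.4 and 23.6 CPM. At week 11 the placebo range was 74.2 to 222 CPM (median 98.5) and the treated range 46.7 to 88.6 CPM (median 69.8). There, 4 of 8 treated biopsies fell below every placebo biopsy and the log2 fold change was -0.75 (SE 0.22, adjusted p = 0.011, edgeR). The estimate was -0.54 (adjusted p = 0.0335) without biopsies over 1% muscle reads, too small for the call, and -0.79 (SE 0.33, adjusted p = 0.135) as a paired change from week -3. The paired form kept the F1016 and F1018 baselines low in albumin, with 10.8 and 11.2 CPM of ACMSD. At weeks 7 and 15 the unpaired ACMSD estimate was -0.43 (SE 0.15, adjusted p = 0.0204) and -0.61 (SE 0.29, adjusted p = 0.105, edgeR), neither called. The paired changes at these weeks were -0.41 (SE 0.29, adjusted p = 0.357) and -0.73 (SE 0.42, adjusted p = 0.31, edgeR). During follow-up the estimates were positive, 0.57 (SE 0.42) at week 19 and 0.67 (SE 0.34) at week 23, and did not pass the test.

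QPRT also rose with time in placebo animals, in 11 of 12 from week -3 to week 7 by a median of 1.78-fold, and its groups overlapped at every week. At week 3 placebo biopsies held 43.0 to 181 CPM (median 99.3) and wIFN-α biopsies 67.9 to 197 CPM (median 150), a log2 fold change of 0.41 (SE 0.23, adjusted p = 0.204, edgeR). At week 15 they held 161 to 228 CPM (median 192) and 85.4 to 203 CPM (median 159), a log2 fold change of -0.31 (SE 0.13, adjusted p = 0.0575, edgeR). The ratio of ACMSD to QPRT, which sets the NAD-diverting against the NAD-forming enzyme, did not pass at any week. Its differences on treatment ran from -0.56 at week 11 to -0.19 at week 7 (exact permutation test, adjusted p = 0.138 and 0.513). As paired changes from week -3, the differences of -0.50, -0.61 and -0.76 at weeks 0, 3 and 11 did pass (permutation test, adjusted p = 0.0476, 0.0483 and 0.0483), and without muscle-rich biopsies they were -0.40, -0.49 and -0.59 and did not (adjusted p = 0.0625, 0.182 and 0.0854).

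**Figure D5:**
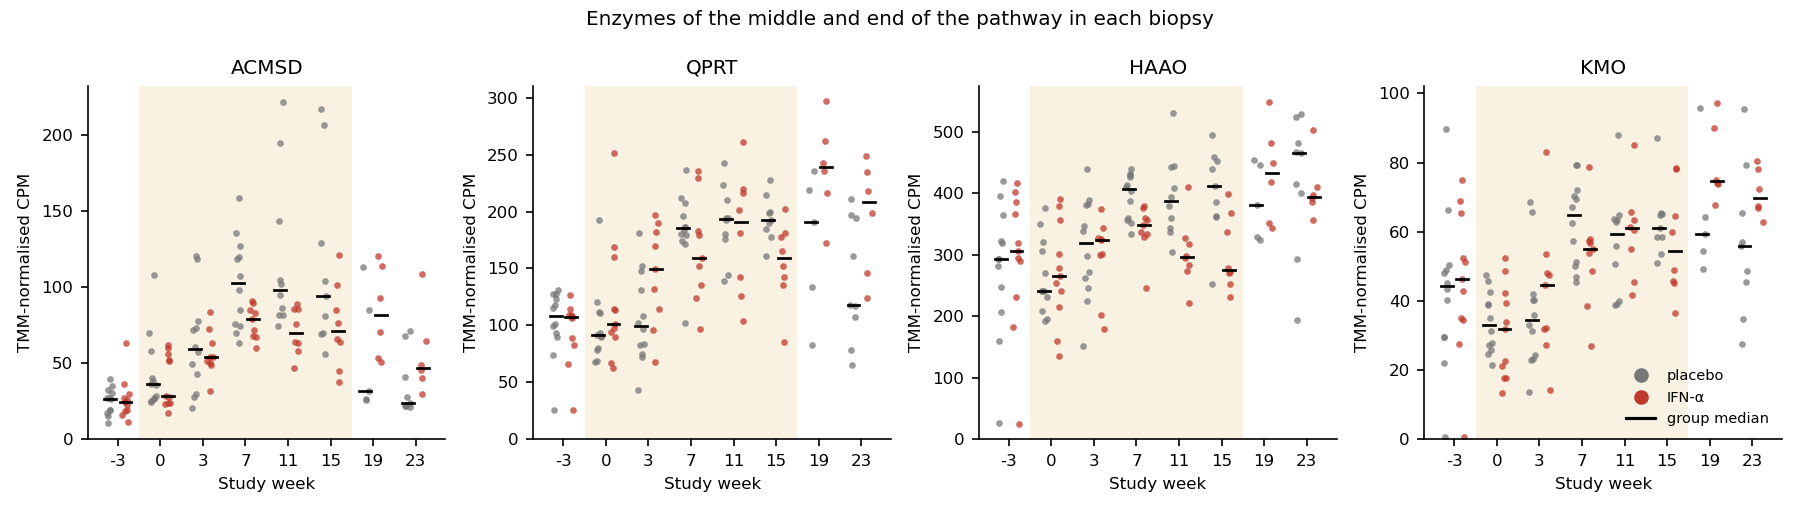
Levels of ACMSD, QPRT, HAAO and KMO in TMM-normalised CPM in each biopsy (gray, placebo; red, wIFN-α), with group medians as black lines and the dosing weeks shaded. ACMSD in placebo animals climbs from a median of 26.6 CPM at week -3 to 103 CPM at week 7 and returns to 23.6 CPM at week 23, and HAAO medians of the treated group lie below those of placebo at weeks 7, 11 and 15.

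NADSYN1, the last enzyme of de novo synthesis, was not called at any week. Its placebo range at week 15 was 18.9 to 32.4 CPM (median 26.9) and its wIFN-α range 11.7 to 31.6 CPM (median 28.1), a log2 fold change of -0.06 (SE 0.20, adjusted p = 0.85, edgeR). All 12 placebo animals rose from week 0 to week 7, by a median of 1.41-fold, the weeks over which KMO, HAAO and ACMSD also rose in all 12.

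NAMPT responded by a similar amount at each on-treatment week. At week -3 placebo biopsies held 71.6 to 119 CPM (median 91.0) and wIFN-α biopsies 80.5 to 101 CPM (median 87.4), with a log2 fold change of -0.03 (SE 0.07, adjusted p = 1, edgeR). At week 0 the levels were 68.0 to 101 CPM (median 84.9) and 172 to 275 CPM (median 212), so that every treated biopsy exceeded every placebo biopsy (log2 fold change 1.31, SE 0.08, adjusted p = 3.19e-12, edgeR). At week 3 they were 71.9 to 90.6 CPM (median 80.6) and 92.1 to 248 CPM (median 193), where the value of F1013 lay just above the placebo range. The log2 fold change of 1.19 (SE 0.12, adjusted p = 1.57e-07, edgeR) became 1.27 without F1013.

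Under the higher dose NAMPT did not overlap between groups. It ran from 79.9 to 117 CPM against 196 to 252 CPM at week 7 (log2 fold change 1.19, SE 0.07, adjusted p = 6.77e-13, edgeR). At week 11 the ranges were 83.6 to 110 CPM and 216 to 295 CPM (log2 fold change 1.301, SE 0.08, adjusted p = 6.01e-11, edgeR). At week 15 they were 85.1 to 108 CPM and 227 to 269 CPM (log2 fold change 1.34, SE 0.06, adjusted p = 2.58e-12, edgeR). At week 19 the 5 placebo biopsies held 84.3, 87.1, 96.0, 104 and 107 CPM and the 6 treated biopsies 87.0 to 112 CPM, and the difference of 0.08 (SE 0.09, adjusted p = 0.723, edgeR) did not pass. The top IDO1 biopsy of week 15, F1020, was not the top NAMPT biopsy, which was F1013. Over the 45 on-treatment biopsies the Spearman correlation of IDO1 with NAMPT was 0.037. Those of NAMPT with the T cell and macrophage sums were 0.227 and 0.119. With the NK and cytotoxic, B and plasma cell, and neutrophil sums they were 0.303, 0.229 and 0.231.

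Set against QPRT, the salvage enzyme gained on the de novo enzyme. The log2 ratio of NAMPT to QPRT per kilobase averaged -2.57 ± 0.43 (SD, n = 12) in placebo and -1.45 ± 0.52 (SD, n = 11) in wIFN-α biopsies at week 0, a difference of 1.11 (permutation test, adjusted p = 0.0003). At week 15 the means were -3.41 ± 0.21 (SD, n = 9) and -1.73 ± 0.40 (SD, n = 8), a difference of 1.69 (exact permutation test, adjusted p = 0.000282). Differences at weeks 7 and 11 were 1.38 and 1.40 (exact permutation test, adjusted p = 0.000163 and 0.000219). The week 3 difference of 0.70 (exact permutation test, adjusted p = 0.0448) did not hold with a pseudocount of 1, as a paired change or when any of 13 of the 21 animals was left out. QPRT stayed the more abundant transcript per kilobase in every group mean.

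On the scale of CPM per kilobase, the median levels of placebo biopsies at week 15 ran in the order HAAO 150, QPRT 114, TDO2 93.2, AFMID 63.2, ACMSD 33.8, KYNU 20.4, NADSYN1 11.1, NAMPT 10.5, KMO 10.2 and IDO1 0.433. Neighbors from HAAO to KYNU overlapped in their ranges, as did NADSYN1, NAMPT and KMO, while IDO1 (0.182 to 1.99) lay below all others. In wIFN-α biopsies of that week NAMPT stood at 26.7 (range 25.1 to 29.8), above ACMSD at 25.6, and IDO1 at 11.4 (range 5.83 to 62.8), between NADSYN1 at 11.6 and KMO at 9.16, which it overlapped. The per-kilobase levels rest on transcript lengths implied by the deposited RPKM.

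Dose and time on treatment changed together and cannot be told apart. The IDO1 effect at week 15 exceeded the mean effect at weeks 0 and 3 by 1.35 on the log2 scale (SE 0.60, unadjusted p = 0.0255, adjusted p = 0.259, edgeR), which did not pass, and by 0.73 without F1020. That fit took repeated biopsies of an animal as independent. With the animal as a replicate block the IDO1 difference was 1.25 (SE 0.47, adjusted p = 0.0873, edgeR), which did not pass either. For NAMPT the difference was 0.07 (SE 0.10, adjusted p = 0.839). QPRT had the largest shift downward, -0.66 (SE 0.27, adjusted p = 0.19), and with the animal as a replicate block it was -0.84 (SE 0.26, adjusted p = 0.0276) and passed. None of the 10 members was called in this contrast, where 2.26% of all genes were, nor by DESeq2, and 2 had an unadjusted p under 0.05, as did 14.3% of all genes. Between weeks 3 and 0 the IDO1 effect differed by -1.14 (SE 0.63, adjusted p = 0.377) and the NAMPT effect by -0.12 (SE 0.11, adjusted p = 0.657), and no member was called by edgeR or DESeq2 or had an unadjusted p under 0.05, against 2.4% of all genes called and 15.8% with such a p. The sex difference of the week 15 effect was called for no gene (0.0%), and no member had an unadjusted p under 0.05 in edgeR or DESeq2, against 4.5% of all genes in edgeR. At weeks -3, 19 and 23, where also 0.0%, 0.0% and 0.0% of genes were called, 0, 1 and 0 members had an unadjusted p under 0.05 in edgeR, against 0.869%, 12.6% and 16.2% of all genes. DESeq2 and limma-voom called no member at these weeks, and each gave 1 member such a p at week 23.

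The sample titles give a sequencing lane number but no flow cell. The same lane number and sample barcode recur in titles of different biopsies, so a lane number pools separate runs. Biopsies of several runs were placed by their deepest run, and the values below do not test a batch. Over on-treatment biopsies the mean log2 level of IDO1 was higher in the wIFN-α group by 3.21 in all and by 1.69 to 4.13 within each of 7 lane numbers. That of NAMPT was higher by 1.26 in all and by 1.10 to 1.43 within lane numbers. The ACMSD difference was -0.34 in all and ran from -0.61 to 0.15 within lane numbers, so its sign did not hold in each of them.

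Genes around the pathway were grouped in 4 lists. Among other kynurenine and tryptophan enzymes (11 tested), 1, 2, 1, 2 and 2 were called higher at weeks 0, 3, 7, 11 and 15 and 1 lower at each of weeks 7 and 15, with a list median of -0.08 on the log2 scale against -0.01 for all genes at week 15. DDC, which makes serotonin and dopamine by decarboxylation, ran from 45.2 to 79.1 CPM in placebo and 104 to 205 CPM in wIFN-α biopsies at week 15 (log2 fold change 1.29, SE 0.13, adjusted p = 4.39e-07, edgeR). IL4I1, a secreted amino acid oxidase of myeloid and B cells, ran from 1.62 to 2.68 CPM and 3.35 to 5.87 CPM (log2 fold change 1.07, SE 0.13, adjusted p = 2.73e-06, edgeR). GCDH, the dehydrogenase of glutaryl-CoA into which the ACMSD branch drains, was lower (log2 fold change -0.60, SE 0.11, adjusted p = 2.99e-04, edgeR). IDO2, the paralog of IDO1, was not called at week 15, with a log2 fold change of -0.16 (SE 0.14, adjusted p = 0.381, edgeR).

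In the list of tryptophan use, transport and aryl hydrocarbon receptor genes (11 tested, 12 at week 11), 3, 1, 2, 2 and 2 were higher at weeks 0, 3, 7, 11 and 15, and 2, 1, 3, 3 and 0 lower (list median 0.19 at week 15). The amino acid transporter SLC7A8, named after its values were seen, was lower at weeks 0, 3, 7 and 11 (log2 fold change -1.40, -1.22, -1.44 and -1.32) and was not called at week 15 (-0.32). WARS, the tryptophanyl-tRNA synthetase, ran from 19.5 to 34.0 CPM in placebo and 45.0 to 226 CPM in wIFN-α biopsies at week 15 (log2 fold change 1.67, SE 0.27, adjusted p = 7.19e-05, edgeR). TIPARP, one of the genes the aryl hydrocarbon receptor induces, ran from 17.6 to 34.3 CPM and 56.2 to 109 CPM (log2 fold change 1.56, SE 0.13, adjusted p = 3.46e-08, edgeR). Neither gene overlapped between the groups. Other targets of that receptor, named after their values were seen, were not called higher. CYP1A1 and CYP1A2 were not called at any week (-0.29 and -0.22 at week 15), and CYP1B1, which among the single weeks passed the filter at week 11 alone, was lower there (-1.66, SE 0.61, adjusted p = 0.0386, edgeR).

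Among other genes of NAD synthesis and salvage (11 to 13 tested), 2, 2, 2, 2 and 3 were higher at weeks 0, 3, 7, 11 and 15 and 1 was lower at each of weeks 0 and 15 (list median -0.19 at week 15). PNP, which frees nicotinamide from its riboside, ran from 94.8 to 155 CPM and 237 to 389 CPM (log2 fold change 1.20, SE 0.12, adjusted p = 2.17e-07, edgeR). NMNAT1, the nuclear enzyme that acts after NAMPT, ran from 9.16 to 11.2 CPM and 13.8 to 18.8 CPM (log2 fold change 0.69, SE 0.07, adjusted p = 4.41e-07, edgeR). SLC22A13, an organic anion transporter, was higher (1.15, SE 0.45, adjusted p = 0.0477, edgeR) with overlapping groups. NT5E, the ectonucleotidase CD73, was lower (-1.09, SE 0.36, adjusted p = 0.0211, edgeR). Of the listed NAD consumers (15 tested), none was called at weeks 0 and 3, 1 was higher at week 7, 2 were higher and 1 lower at week 11, and 1 was higher and 2 lower at week 15 (list median -0.06). Of the PARP genes this list holds PARP1 and PARP2 alone. TIPARP, counted above with the receptor genes, was called higher at weeks 0, 3, 7, 11 and 15. CD38, an NAD glycohydrolase of immune cells, was higher (log2 fold change 1.90, SE 0.47, adjusted p = 0.00327, edgeR). The mitochondrial sirtuins SIRT3 and SIRT5 were lower (-0.74, SE 0.12, adjusted p = 5.88e-05, and -0.60, SE 0.19, adjusted p = 0.0163, edgeR). No gene of the 4 lists was called at weeks -3, 19 or 23.

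The genes whose level followed IDO1 most closely over the 45 on-treatment wIFN-α biopsies, among 13794 genes compared, were HLA-G (Spearman 0.706), CHMP4A (0.68), HLA-C (0.678), RHOH (0.663) and SYTL3 (0.63). The HLA-G and HLA-C entries are related class I genes between which reads may be shared, so their values are uncertain. Those most like NAMPT were RIT1 (0.872), FZD5 (0.828), SLU7 (0.776), ALG10B (0.762) and TRAF6 (0.758). Correlations of IDO1 with the other members over the same biopsies ran from -0.37 for HAAO to 0.243 for ACMSD. Over the 81 placebo biopsies they ran from -0.451 for KYNU to 0.135 for ACMSD. Biopsies of the same animals recur in both sets, so these are descriptions.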

How the data were processed

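Poly(A) RNA of liver biopsies was sequenced by the authors as paired reads of 50 nucleotides. They demultiplexed with CASAVA, mapped with Bowtie2 to their own woodchuck transcriptome assembly, whose contigs carry human, mouse and rat symbols, and counted with SAMtools. Versions are not given in the sources used here. What the authors deposited for each run is a table of expected counts, of which 118 of 3368023 entries are fractions. The authors' RPKM served only to derive transcript lengths.

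Runs (203) of one biopsy were added together, giving 164 biopsies, and sums were rounded. Of these, 149 entered the comparisons, 7 of animal M1004 and 8 from other times did not. Genes not listed in a run were taken as 0 and the virus entry was left out. Groups came from the agent label. Each week was fitted with edgeR 4.0.16 in R 4.3.3 (TMM, filterByExpr, quasi-likelihood F test, Benjamini-Hochberg over all genes). Differences between weeks and between sexes were called at an adjusted p under 0.05. Ratios used log2 of CPM per kilobase plus 0.1 and two-sided permutation tests over animals, exact unless both groups held at least 10, adjusted over 24 comparisons. Alternatives used DESeq2 1.42.0, limma-voom (limma 3.58.1), other filters and normalization, the deepest run, M1004, sex, the animal as a block, biopsies without muscle reads (chosen after seeing the data) and single animals left out.

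Counts were simulated for week 15 with 200 of 14943 genes changed, drawn from genes with higher mean counts. From these, edgeR recovered 87 of 100 changed by a fold of 2 and 97 of 100 changed by a fold of 4. It also called 6 unchanged genes, and recovery of scarce genes was not measured. Same-animal biopsies of different weeks correlated in their deviations from group means (median 0.312 over 450 pairs, 328 of them above 0.1) more than biopsies of different animals did (median -0.024 over 4409 pairs, 1427 of them above 0.1), the pairing being the animal number of the labels. The members and lists were chosen with earlier results of these data known. All 10 members were named, list genes were named if called at week 15 (at most 6 per list), IDO2 was added as the paralog of IDO1, and the 5 most similar genes by rank correlation.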

Additional observations from a re-analysis of the deposited data

Results flagged for a closer look

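In 100 groups of 4 to 10 biopsies, 17 single biopsies stood apart by Dixon's criterion, where chance gives about 1 in 20 groups. Of these, 10 were AFMID in F1018, at 1107, 1120, 1105, 1049, 1046 and 845 CPM at weeks 3, 7, 11, 15, 19 and 23, or in F1019, at 1314, 1188, 749 and 1637 CPM at weeks 11, 15, 19 and 23. IDO1 in F1020 stood apart at weeks 11 and 15, at 152 and 205 CPM. KMO did so in placebo animals F1021 at week 11 (87.9 CPM) and F1016 at week 15 (87.2 CPM). Within the wIFN-α group, KYNU stood apart in M1003 at week 7 (97.9 CPM), and HAAO in M1007 at week 7 (245 CPM) and in M1003 at week 23 (504 CPM). The cause was not tested.

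Of the biopsies outside the comparisons, 8 from treated animals held IDO1 and NAMPT above placebo. Animal M1004, left out of every comparison, had 43.0, 19.7, 31.4, 50.9 and 45.9 CPM of IDO1 at weeks 0, 3, 7, 11 and 15 and 226, 214, 238, 256 and 239 CPM of NAMPT, each above all placebo biopsies of its week. Its IDO1 was 3.00 CPM at week -3 and 3.69 CPM at week 19, within the placebo range, as was the IDO1 of M1002 at week 25 (2.41 CPM). Outside the scheduled weeks, a biopsy of M1006 held 19.9 CPM of IDO1 and 199.6 CPM of NAMPT, and those taken when M1007 and F1023 died held 30.5 and 40.7 CPM of IDO1 and 220 and 159 CPM of NAMPT. No placebo biopsy exceeded 12.6 CPM of IDO1 or 129 CPM of NAMPT.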

How the results depend on the processing

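Of 11 called member effects, IDO1 and NAMPT at 5 weeks each and ACMSD at week 11, none changed sign under 237 alternative values and only that of ACMSD lost its call (fold change above 2, -0.75, and the 2 settings given with it). Among 89 effects not called, 32 changed sign in at least one alternative.

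Without a fold threshold 4 members were called at week 7, 4 at week 11 and 3 at week 15. With the animal as a replicate block 1 was called in the dose contrast. The number called at week 0 was 2 to 3 without single animals, TDO2 joining at -0.62 without M1002.

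Signs changed for IDO1 at week -3 with limma-voom (0.0552) and at week 19 without single animals (-0.12 to 0.90), for NAMPT at week -3 without muscle-rich biopsies (0.0038) and in week 3 minus week 0 without single animals (-0.19 to 0.0069), and at week 15 without single animals for TDO2 (-0.14 to 0.0059), AFMID (-0.72 to 0.34) and NADSYN1 (-0.13 to 0.0479).

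For the IDO1 to TDO2 ratio, the week -3 difference was -0.0040 with a pseudocount of 1 and ran from -0.77 to 0.96 without single animals. The week 19 difference was 0.74 in the paired form, 0.84 without muscle-rich biopsies, 0.12 with both, and 0.82 to 1.29 without single animals, and that of week 23 ran from -0.51 to 0.26. The paired differences at weeks 3, 11 and 15 were 1.77, 3.83 and 4.04, and 2.47 at week 3 without muscle-rich biopsies. For ACMSD to QPRT the paired differences at weeks 0, 3 and 11 were -0.50, -0.61 and -0.76, and those without single animals ran from -0.53 to -0.38 at week 3 and -0.71 to -0.41 at week 11. For NAMPT to QPRT at week 3 the difference was 0.64 with a pseudocount of 1, 0.64 in the paired form, 0.84 paired without muscle-rich biopsies, and 0.56 to 0.86 without single animals, and at week -3 it ran from -0.10 to 0.28. The cause of these changes was not tested. The replicate block changed no other call.

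Leaving out single animals was run at weeks 0, 3, 7 and 11 for wIFN-α animals and at weeks 15, 19 and 23 for all in the gene tests. IDO1 rested on as few as 11 counts in a biopsy.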

Other observations

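TDO2 in placebo animals was lower at week 0 than at week -3 in 11 of 12 animals, by a median of 2.08-fold, and rose again from week 0 to week 7 in 11 of 12, by a median of 1.64-fold. ACMSD moved the other way between weeks -3 and 0, rising in 11 of 12 placebo animals by a median of 1.46-fold. From week 15 to week 23 TDO2 and KYNU each rose in 7 of 8 placebo animals, while ACMSD fell in all 8, by a median of 2.96-fold, and QPRT in 6 of 8, by a median of 1.80-fold. These shifts occurred without wIFN-α and are given without a test. Placebo biopsies of week 0 were taken hours after an injection and those of week -3 were not. The part of this difference in sampling was not tested.

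The biopsy taken when F1020 died held 4.91 CPM of IDO1 and 108 CPM of NAMPT, against 205 CPM of IDO1 in the same animal at week 15.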
